A study of Mus musculus with 12 samples.

Results

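The interferon-inducible p200 genes lie side by side on mouse chromosome 1, and 9 of them are described here: Aim2, Ifi203, Ifi204, Ifi206, Ifi207, Ifi209, Ifi211, Ifi213 and Mndal. They were taken by symbol from the 55487 genes of the deposited table, and the set was chosen on measured values: their diet difference in these same libraries was known when the set was put together. Differences between the diets are therefore given as a description, with no test read from them. The kidneys came from male mice with X-linked Alport syndrome (XLAS) on the B6 background, at 30 weeks of age. Alport syndrome is an inherited disease of the glomerular basement membrane caused by faults in type IV collagen chains. The labels name Col4a5 for every library and give the genotype as HET, although the mice are male. The fisetin group ate a diet with 500 ppm of fisetin, a plant flavonoid, and the control group ate the control diet. Each diet has 6 libraries of whole kidney, 3 in each of 2 labelled batches. Nothing in the labels ties 1 library to 1 mouse, so p-values measure the spread between these libraries, which may be partly technical. No kidney of a healthy mouse was analysed here. The title of the series names mTOR signalling as a modifier and a drug target in this model.

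Proteins of the p200 family, also called PYHIN proteins, usually join a pyrin domain, which binds other pyrin domains, to a HIN-200 domain, which binds DNA. Interferons raise the transcription of these genes, and macrophages and other blood-derived cells are known for high levels. Aim2 is the best understood member: it senses double-stranded DNA in the cytosol and, through Pycard and Casp1, assembles an inflammasome that matures interleukins and opens the membrane pore of Gsdmd.

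The deposited table held 14 genes of the chromosome 1 cluster, which spans chr1:173350879-174031810 in GRCm38 from Aim2 to Ifi205. Beside the 9 members these were Ifi202b, Ifi203-ps, Ifi205, Ifi208 and Ifi214. Ifi202b lacks the pyrin domain and is known in mice as an inhibitor of Aim2, and here it never exceeded 2 counts in a library. The members are protein-coding genes on both strands. The annotated Mndal gene (chr1:173849126-173942491, minus strand) spans Ifi211 and nearly all of Ifi203 on the same strand, while Aim2 (chr1:173350879-173466040, plus strand) overlaps Cadm3 on the opposite strand. These are overlaps of whole gene spans, and overlap of exons was not examined by coordinates. No stretch of 50 bases in the annotated Aim2 transcripts was found in a Cadm3 transcript on either strand. The sources used here do not give the strand setting of the counting. Mndal shared 7.96% of its 50-base stretches with Ifi211 and 6.19% with Ifi203. Reads in such shared stretches could go to either gene under any strand setting.

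Near-identical paralogs set how far each member can be read on its own. Annotated transcripts were cut into windows of 50 bases, and a window counted as unique when no other gene held it. Aim2 had 99.26% unique windows, Ifi207 92.71%, Ifi203 87.65%, Ifi213 84.37% and Mndal 80.45%. Ifi204 had 79.98%, Ifi206 74.36% and Ifi209 66.25%. Ifi211 stood lowest at 27.21%. Ifi211 shared 44.71% of its windows with Ifi205 and 30.1% with Ifi204, and its coding sequence held an unbroken run of 495 bases identical to Ifi205. Ifi209 shared 33.35% of its windows with Ifi214, with an identical coding run of 253 bases. Members also differed in how often their deposited counts were whole numbers. The counts of Ifi204 and Ifi211 were not whole numbers in any of the 12 libraries, whereas those of Aim2 and Ifi207 were whole in all 12. Ifi209 had values that were not whole in 11 libraries, Mndal and Ifi203 in 10, Ifi206 in 3 and Ifi213 in 1. Values of every member but Aim2 and Ifi207 are uncertain for this reason, those of Ifi211 and Ifi209 most by shared sequence, since the counting could split reads among copies.

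The promoters share sequence too, and they are shown because most members hold letters matching the core of the interferon-stimulated response element (ISRE). The ISRE is a short promoter site known from many interferon-induced genes. RefSeq promoter windows (GRCm38.p6), from 250 bases before to 50 bases after a start, were given for 8 of the 9 members in 10 windows. Ifi204 had none. The ISRE core was searched as GAAANNGAAA on both strands. It was present in 6 members: Ifi206, Ifi213, Ifi207, Mndal, Ifi211 and Ifi203. Of all 32851 mouse promoter windows of the same length, 3.44% held it. Some of the members' windows are near copies, such as those of Ifi206 and Ifi213 at 98.9% identity, so the matches are not separate cases. The stretches below run 5′ to 3′ on the gene's strand, hold 84 bases each and end before the start, with the core in capitals. In Ifi209 the capitals mark the bases that align with the core of Ifi214, its closest copy.
Ifi206: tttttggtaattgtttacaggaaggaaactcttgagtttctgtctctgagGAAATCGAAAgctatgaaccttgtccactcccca
Ifi213: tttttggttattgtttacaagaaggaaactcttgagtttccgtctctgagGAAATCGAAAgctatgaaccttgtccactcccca
Ifi209: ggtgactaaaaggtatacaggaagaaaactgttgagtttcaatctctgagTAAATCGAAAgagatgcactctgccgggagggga
Ifi214: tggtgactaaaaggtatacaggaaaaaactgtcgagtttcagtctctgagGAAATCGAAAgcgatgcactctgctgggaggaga
Ifi207: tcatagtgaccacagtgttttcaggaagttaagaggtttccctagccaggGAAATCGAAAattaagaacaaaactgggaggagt
Ifi211: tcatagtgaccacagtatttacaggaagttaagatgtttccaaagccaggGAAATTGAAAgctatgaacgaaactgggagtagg
Mndal start 1: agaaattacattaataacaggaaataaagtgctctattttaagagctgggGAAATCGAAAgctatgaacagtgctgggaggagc
Ifi203 start 2: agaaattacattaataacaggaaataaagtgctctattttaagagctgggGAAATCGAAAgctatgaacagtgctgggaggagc

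The core began at -40 in Ifi206 (chr1:173491325-173491408, minus strand), at -73 in Ifi213 (chr1:173599312-173599395, minus strand) and at -41 in Ifi207 (chr1:173741817-173741900, minus strand), counted from the start. It began at -37 in Ifi211 (chr1:173913050-173913133, minus strand). In Mndal it began at -36 from the start labelled 1 (chr1:173880190-173880273, minus strand), and in Ifi203 at -35 from the start labelled 2 (chr1:173942494-173942577, minus strand). The Mndal and Ifi203 stretches are letter for letter the same, and their full windows were 97.6% identical over 289 aligned bases. Relative to the core of Ifi213, counted from 1 at its 5′ end, Ifi211 carried C6T, which leaves the searched letters intact. Ifi209 (chr1:173630730-173630813, plus strand) carried G1T, which removes the match, while Ifi214 (chr1:173536003-173536086, minus strand) kept the core in a window 96.0% identical to that of Ifi209. Mndal start 2 held a further match on the reverse strand at -54. No match was found in the windows of Aim2 or of Ifi203 start 1. These matches describe letters in these windows and are not evidence of binding.

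A second set of letters, the gamma-activated site TTCNNNGAA (GAS), matched in none of the members' windows and in 8.3% of all windows. The ETS core GAGGAA matched at -140 and -113 in Aim2, at -43 in Ifi206 and at -76 in Ifi213, against 28.3% of all windows. In Ifi206 and Ifi213 the ETS match overlaps the start of the ISRE core. Among the 5 other cluster genes, 4 had a window, and Ifi214, Ifi208 and Ifi205 held the ISRE core.

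Library totals were 16310214 to 24451821 counts in the fisetin group and 18638748 to 22396857 counts in the control group. The small cytoplasmic RNA genes Rn7s1 and Rn7s2 took 40.34% to 53.1% of TPM, highest in control 1. Levels across libraries are therefore given in CPM, counts scaled by library total and TMM factor, and levels between genes in TPM, which is per length. All 9 members passed the count filter and were among the 17890 genes fitted.

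By TPM over the 12 libraries, Mndal (10.97 ± 3.99) and Ifi203 (10.36 ± 3.14) stood above the rest (SD, n = 12, both diets together). Mndal was the higher of that pair in only 7 of 12 libraries, so their order is not settled. Ifi203 exceeded Ifi204 (4.88 ± 1.71 TPM) in 12 of 12 libraries. Ifi204 in turn exceeded Ifi211 in 11 of 12. Ifi211 (4.32 ± 1.49 TPM), Aim2 (3.68 ± 1.65 TPM), Ifi213 (3.44 ± 1.27 TPM) and Ifi207 (3.29 ± 1.48 TPM) formed a middle group. Each of these exceeded the next in 8 of 12 libraries, up to Ifi207, which exceeded Ifi209 (2.27 ± 1.07 TPM) in 11. Ifi206 was lowest at 1.42 ± 0.522 TPM, below Ifi209 in all 12 libraries. The length implied by each library's deposited count and FPKM ran from 408.1 to 838 bases for Aim2 and from 952.7 to 1207 bases for Mndal. For Ifi206 it stayed between 2730 and 2766 bases. For Ifi213 it ran from 1918 to 2508 bases. The TPM of Aim2, Mndal and Ifi213 thus carries a length that differed between libraries.

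**Figure D1:**
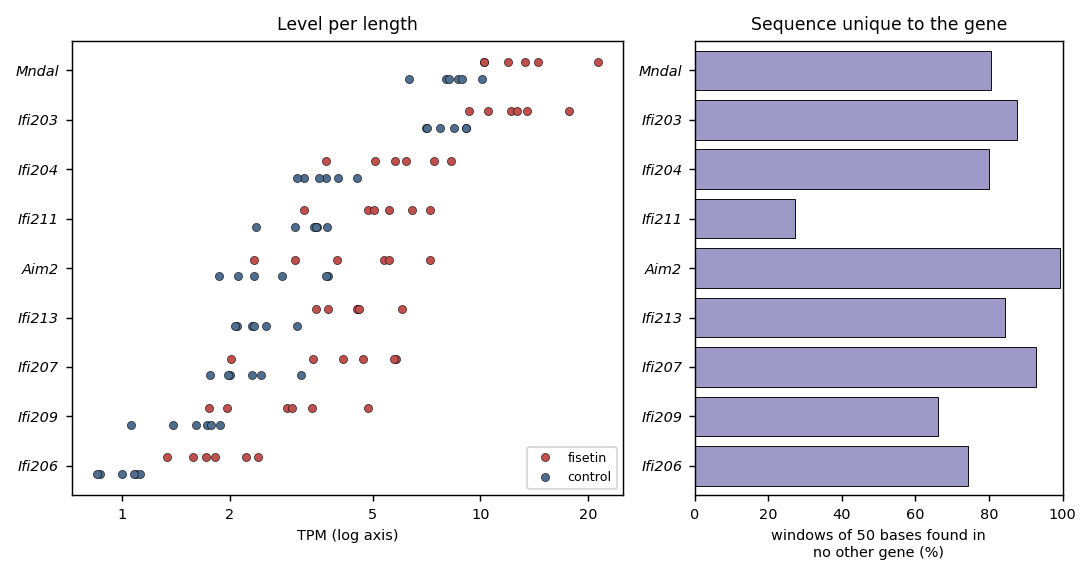
The left panel plots the TPM of each member in every library on a log axis, with 6 fisetin libraries above 6 control libraries for each gene, and the right panel plots the percentage of its 50-base windows found in no other gene. Mndal and Ifi203 reach the highest TPM, and Ifi211 has the lowest unique share, 27.21%.

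All 9 members averaged higher in the fisetin group than in the control group, by 1.45-fold for Ifi203 to 1.74-fold for Ifi207. Their summed level was 125.2 to 207.1 CPM in fisetin libraries and 86.56 to 131.5 CPM in control libraries, with means of 160.4 ± 29.8 and 103.1 ± 15.6 CPM (SD, n = 6 each). Fisetin 6 was the only fisetin library below the highest control library, control 1. In TPM the summed level was 38.35 to 80.76 in fisetin libraries and 28.55 to 36.85 in control libraries, with no overlap. Control 1, the highest control library in CPM, had 33.15 in TPM. Rn7s1 and Rn7s2 took 53.1% of TPM in control 1 and 49.21% in fisetin 6, so TPM ranks these libraries differently from CPM. In bulk kidney, fewer cells of a type and less RNA per cell cannot be told apart.

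Aim2, the DNA sensor of the inflammasome, had 2.45 CPM in its lowest, 4.51 at the median and 7.20 CPM in its highest fisetin library, against 2.20, 2.44 and 5.01 CPM in control libraries. The groups overlapped: fisetin 6 lay among the control libraries, and control 1 lay above every fisetin library but fisetin 1 and fisetin 5. The log2 fold change, fisetin over control, was 0.68 ± 0.28 (SE), the least precise of the 9.

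Ifi204 encodes p204, often treated as the mouse relative of human IFI16, a nuclear and cytosolic DNA-binding protein. It ran from 12.3 over a median of 16.4 to 20.8 CPM in fisetin libraries, and from 9.08 over 10.5 to 12.5 CPM in control libraries. Only fisetin 6 fell within the control range. The log2 fold change was 0.62 ± 0.13. Ifi203, the most strongly counted member, ran from 43.3 over 48.8 to 64.8 CPM in fisetin libraries and from 29.8 over 34.9 to 41.3 CPM in control libraries. Every fisetin library stood above every control library, with a log2 fold change of 0.54 ± 0.11. Mndal, named for its likeness to human MNDA, had 17.9, 20.5 and 29.0 CPM at the lowest, median and highest fisetin library, against 12.1, 14 and 18.1 CPM in control libraries. Its groups met only where fisetin 3 fell just under control 1, and its log2 fold change was 0.59 ± 0.13.

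Ifi206 had 6.43, 7.19 and 8.83 CPM at the lowest, median and highest fisetin library, against 3.61, 4.31 and 5.75 CPM in control libraries. The groups did not overlap, and the log2 fold change was 0.78 ± 0.14. Ifi213 had 11.3, 14.1 and 17.8 CPM in fisetin libraries and 6.93, 8.11 and 12.8 CPM in control libraries. Control 1 alone reached into the fisetin range, above fisetin 3 and fisetin 6, and the log2 fold change was 0.71 ± 0.15. Ifi209, the member with the changed ISRE letters, had 9.44, 13.4 and 20.5 CPM in fisetin libraries, against 5.29, 7.77 and 11.4 CPM in control libraries. Fisetin 3 and fisetin 6 lay below control 1, and the log2 fold change was 0.77 ± 0.22.

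Ifi207, with the longest coding sequence of the members at 2934 bases, had 11.1, 20.3 and 26.3 CPM at the lowest, median and highest fisetin library, against 8.68, 10.3 and 15.1 CPM in control libraries. Fisetin 6 lay below control 1 and control 5, and the other 5 fisetin libraries lay above every control library. The log2 fold change was 0.80 ± 0.20, the highest of the 9. Ifi211 had 8.45, 11.5 and 14.4 CPM in fisetin libraries and 5.58, 7.76 and 9.50 CPM in control libraries. Again only fisetin 6 fell within the control range, and the log2 fold change was 0.62 ± 0.14.

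**Figure D2:**
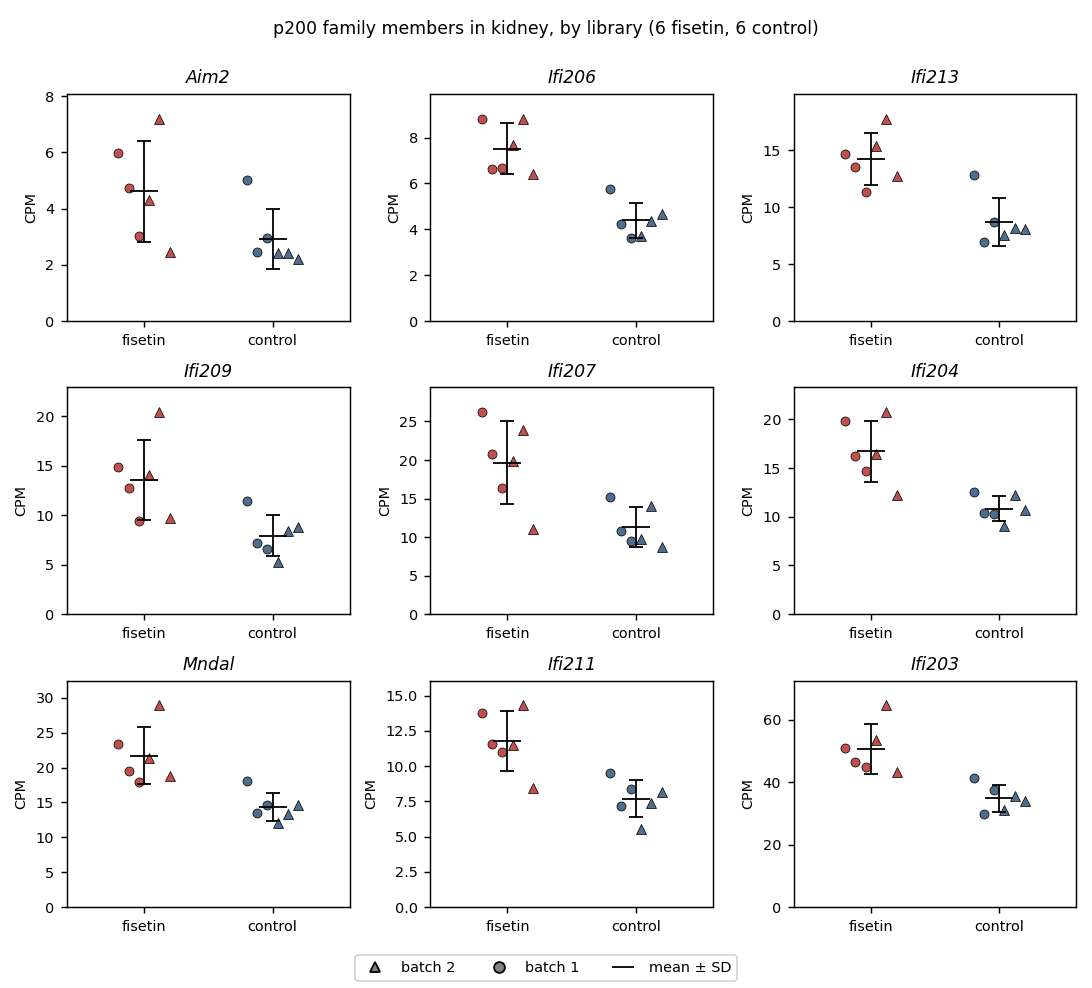
Each panel plots the CPM of 1 member in 6 fisetin libraries (left) and 6 control libraries (right), with triangles for batch 2, circles for batch 1 and the mean ± SD as a bar. The groups separate completely for Ifi206 and Ifi203, and control 1, the leftmost control point, is the highest control library in all 9 panels.

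The same libraries sat at the edges for most members. Fisetin 5 was the highest of all 12 libraries for 7 members and fisetin 1 for the other 2. Among fisetin libraries the lowest was fisetin 6 for 6 members and fisetin 3 for 3, and control 1 was the highest control library for all 9. After the mean of each diet and batch was taken off, log2 CPM of the 36 pairs of members correlated at r = 0.68 to 0.93, median 0.855, over 12 libraries. These pairs share libraries, and reads of the paralogs could be split between them. Pairs of other genes were not measured in this way, so the range has no background beside it.

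Because this contrast chose the members, its calls are listed with their background and nothing is read from them. All 9 members had a log2 fold change above 0, as had 50.2% of genes. At an unadjusted p under 0.05 in edgeR's quasi-likelihood test 9 of 9 were higher with fisetin, as were 8.23% of genes. After adjustment over all genes, edgeR called 0 of 9 members and 0% of genes, while 2608 genes had an unadjusted p under 0.05. DESeq2 called 7 of 9 members and 0.861% of genes. Limma-voom with library quality weights called 9 of 9 members as higher, as it did 6.46% of genes, and limma on log2(TPM + 1) called 0. Groups did not overlap in CPM for 2 of 9 members, against 0.47% of genes with every fisetin library above every control library. In TPM this held for 4 of 9 members, Ifi206, Ifi213, Mndal and Ifi203, against 0.179% of genes. These TPM values carry the share of Rn7s1 and Rn7s2, 53.1% in control 1, and for Ifi213 and Mndal a varying length. The members' median log2 fold change was 0.68, and that of all genes fitted was 0.00.

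A single library moved the edgeR calls. Without fisetin 6, edgeR called 70 genes, 5 of them members: Ifi206, Ifi207, Ifi204, Ifi211 and Ifi203. Without any other library it called at most 1 gene and 0 members. Fold changes of the members stayed above 0 with any 1 library left out. The lowest value was 0.45, for Ifi203 without fisetin 5. The highest was 0.92, for Ifi207 without fisetin 6 and for Ifi209 without control 1. Aim2 ran from 0.46 without fisetin 5 to 0.88 without control 1, against 0.68 with all libraries.

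The batch term did not enter the choice of members. Batch 2 minus batch 1 ranged from -0.26 for Aim2 to 0.05 for Ifi209 in log2. By edgeR 0 of 9 members were called, against 0% of genes, where 604 genes and 0 members had an unadjusted p under 0.05. DESeq2 also called 0 genes. The smallest adjusted p among the members was 0.8916 by edgeR's quasi-likelihood test.

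Within batches, every member was higher in the fisetin group each time. With batch 2 alone the log2 fold changes ran from 0.64 to 1.00 and with batch 1 alone from 0.39 to 0.84. Aim2 had 1.00 in batch 2 and 0.39 in batch 1. Mndal had 0.80 in batch 2 and 0.40 in batch 1, and Ifi203 had 0.69 in batch 2 and 0.39 in batch 1. Ifi204 had 0.64 in batch 2 and 0.62 in batch 1. The difference between batches, batch 2 minus batch 1 and tested as an interaction in edgeR, was -0.09 for Ifi207 to 0.60 for Aim2, and 0 of 9 members were called, against 0% of genes. Unadjusted p was under 0.05 for 376 genes and for 0 members, and DESeq2 called 1 gene, not a member.

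**Figure D3:**
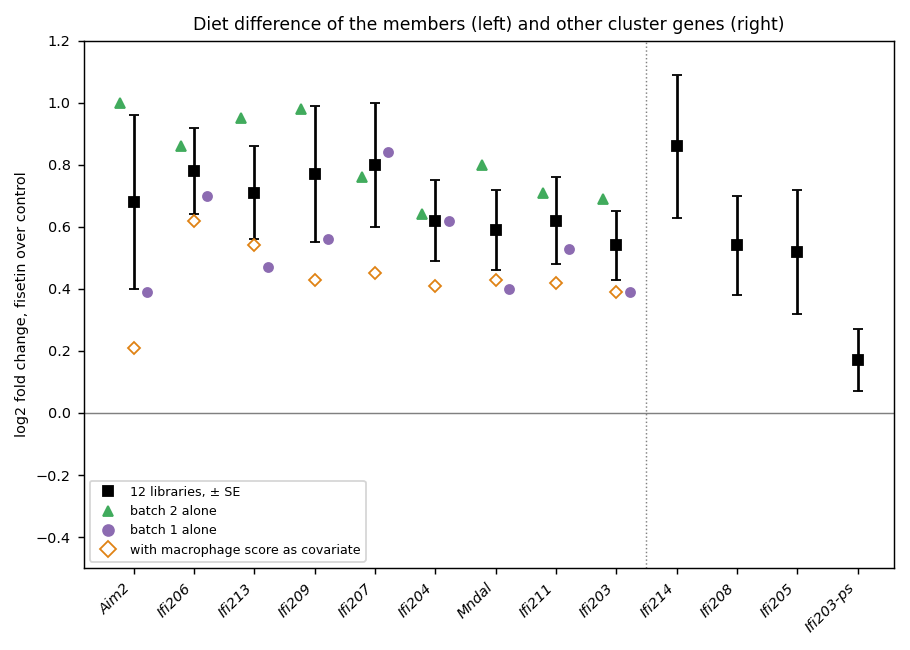
The log2 fold change of fisetin over control is plotted for the 9 members (left of the dotted line) and 4 other cluster genes, as squares with SE from all 12 libraries. Triangles give batch 2 alone, circles batch 1 alone and open diamonds the value with the macrophage score in the fit: every value lies above 0, and the lowest among the members is the diamond of Aim2 at 0.21.

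The 4 other cluster genes fitted also had fold changes above 0. Ifi214 averaged 3.43 ± 0.932 CPM in fisetin libraries and 1.89 ± 0.592 CPM in control libraries (SD, n = 6 each). Its log2 fold change was 0.86 ± 0.23. Ifi208 had 0.54 ± 0.16 and Ifi205, a family member that in mouse macrophages is known to act on Pycard expression, had 0.52 ± 0.20. In batch 2 Ifi205 averaged 5.61 CPM with fisetin and 2.79 CPM with control diet, and in batch 1 it averaged 4.53 CPM with fisetin and 4.38 CPM with control diet. Its log2 fold change was 0.95 ± 0.29 higher in batch 2 than in batch 1 by the interaction term, with an unadjusted p of 0.006857 and an adjusted p of 0.9999 by edgeR's quasi-likelihood test. The pseudogene Ifi203-ps had 0.17 ± 0.10, with means of 2.90 and 2.57 CPM. Because Ifi214 shares sequence with Ifi209, and Ifi205 with Ifi211, reads could be split between them, and these values may not be separate measurements.

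Around the members, the 34 other interferon-induced genes were all higher on average with fisetin, with a median log2 fold change of 0.36. By edgeR 0 of them passed, 27 had an unadjusted p under 0.05, DESeq2 called 9 and limma-voom called 28, all higher. Over all genes, 8.23% were higher at an unadjusted p under 0.05 in edgeR. DESeq2 called 0.861% of all genes in either direction, and limma-voom called 6.46% as higher. Parp14, a mono-ADP-ribosyltransferase, had a log2 fold change of 0.43 ± 0.09, and Irgm1, a GTPase of the response to intracellular pathogens, had 0.34 ± 0.08. The members' lowest value, 0.54 for Ifi203, was exceeded by 3 of these 34 genes: Oas3 at 0.70, Iigp1 at 0.61 and Zbp1 at 0.56, named after their values were seen.

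Of the 16 interferon receptor and signalling genes, 15 had a fold change above 0, with a median of 0.16 in log2. None passed in edgeR or DESeq2 (0 each), 6 had an unadjusted p under 0.05 in edgeR, and limma-voom called 8, all higher. The shares of all genes higher by these 2 measures were 8.23% and 6.46%. The kinase Jak1 had 0.08 ± 0.04. Of the 10 interferon ligand genes 0 reached the filter and 7 were at 0 in all 12 libraries, Ifnb1 among them. Ifng, the ligand of highest level, had 0.254 ± 0.173 CPM in fisetin libraries and 0.126 ± 0.101 CPM in control libraries.

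The list around the Aim2 inflammasome holds its partners and cytokines, and also Nlrp3 and Nek7, which belong to another inflammasome. Of 11 genes fitted, 9 were above 0 and 2 below, with a median of 0.20 in log2. By edgeR and DESeq2 0 were called, edgeR had 4 with an unadjusted p under 0.05, and limma-voom called 4. Casp1, the protease that Aim2 activates, averaged 5.53 ± 2.37 CPM in fisetin libraries and 3.34 ± 1.15 CPM in control libraries, a log2 fold change of 0.73 ± 0.30. Pycard, the adaptor between the pair, had 0.20 ± 0.15, and the pore protein Gsdmd 0.33 ± 0.18. Il1b (0.00 ± 0.32) and Il18 (-0.07 ± 0.17), whose products the inflammasome matures, had fold changes within their error of 0. The most counted genes of the list, Nek7 and Casp8, had 0.01 ± 0.05 and 0.14 ± 0.04. Of 12 genes on the cGAS-STING route, the other main path from cytosolic DNA to interferon, 10 were above 0, with a median of 0.08. By edgeR and DESeq2 0 were called, edgeR had 3 with an unadjusted p under 0.05, and limma-voom called 3. In this list and the inflammasome list these genes were all higher. Of all genes, 8.23% were higher at that unadjusted p, and limma-voom called 6.46% as higher. Its most counted genes were Samhd1, which degrades deoxynucleotides, at 0.38 ± 0.14 and Enpp1, which degrades the second messenger of Cgas, at 0.02 ± 0.05. Casp1, Pycard, Gsdmd, Il1b and Il18 were named for their roles, with their values known.

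**Figure D4:**
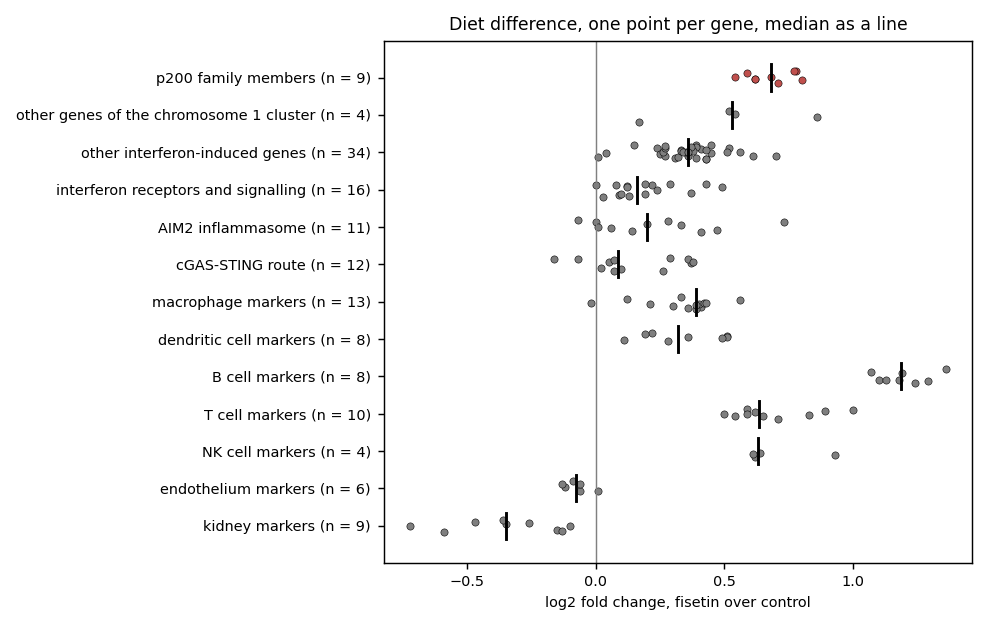
Each point is the log2 fold change of 1 gene, fisetin over control, for the members (top row) and for lists of related genes and cell type markers, with the list's median as a line. The members' median is 0.68, that of other interferon-induced genes 0.36, of macrophage markers 0.39, of B cell markers 1.19 and of kidney markers -0.35.

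Markers of immune cells were mostly higher on average in the fisetin group, as the members were, with overlapping ranges. Of 13 macrophage markers 12 were higher in the fisetin group, with a median log2 fold change of 0.39 and a summed level of 645.6 to 1523 CPM in fisetin libraries and 704.3 to 1207 CPM in control libraries. The most counted of them, Lyz2 and Csf1r, had 0.56 ± 0.24 and 0.21 ± 0.12. All 8 dendritic cell markers were higher (median 0.32, summed level 72.0 to 115.0 CPM in fisetin and 67.4 to 97.8 CPM in control libraries), led in level by Itgax at 0.51 ± 0.18 and Zbtb46 at 0.11 ± 0.05. B cell markers, 8 of 8 higher, had a median of 1.19 and summed levels of 17.2 to 182.0 CPM in fisetin libraries and 9.51 to 100.8 CPM in control libraries. Their most counted genes, Cd22 and Bank1, had 1.13 ± 0.63 and 1.19 ± 0.63, and these errors reflect the wide spread within each diet.

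T cell markers, 10 of 10 higher, had a median of 0.63 and summed levels of 30.1 to 103.8 CPM in fisetin and 26.7 to 72.1 CPM in control libraries, with Cd4 at 0.89 ± 0.33 and Lck at 0.59 ± 0.32. NK cell markers had 4 of 7 genes fitted, all higher (median 0.63), and summed levels of 5.61 to 13.4 CPM in fisetin and 4.42 to 9.55 CPM in control libraries, led by Nkg7 at 0.61 ± 0.31 and Eomes at 0.93 ± 0.50. Of 6 neutrophil markers only Csf3r was fitted (0.34 ± 0.20). The defining neutrophil genes S100a8 and S100a9 stayed under 1 CPM on average, and Ly6g was at 0 in 9 of 12 libraries.

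Kidney markers went the other way: 0 of 9 were higher, with a median of -0.35, and the proximal tubule genes Lrp2 (-0.47 ± 0.22) and Slc34a1 (-0.35 ± 0.22) had the highest levels. They summed to 6250 to 14270 CPM in fisetin and 8420 to 15420 CPM in control libraries. Of 6 endothelial markers 1 was higher (median -0.07), summing to 383.6 to 565.0 CPM in fisetin and 425.6 to 495.6 CPM in control libraries, with Plvap at -0.13 ± 0.11 and Kdr at -0.12 ± 0.12. No marker of these lists was called by edgeR or DESeq2 (0 each). Unadjusted p in edgeR was under 0.05 for 2 macrophage, 4 dendritic cell, 5 T cell, 1 NK cell and 1 kidney marker. Limma-voom called 8 macrophage, 3 dendritic cell and 4 T cell markers as higher and 1 kidney marker as lower. Over all genes, 8.23% were higher at an unadjusted p under 0.05 in edgeR, and limma-voom called 6.46% as higher. The part of dendritic, B, T and NK cells and of kidney tissue in the members' difference was not tested.

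The level of macrophage markers was also put into the fit. The mean log2 CPM of the 13 markers, here the macrophage score, was 5.10 to 6.23 in fisetin libraries and 5.26 to 5.99 in control libraries. Fisetin 5, the top library of most members, had the highest score. Fisetin 6 had the lowest score of all libraries, and control 1 the highest among control libraries. The members summed to 125.2 CPM in fisetin 6, above every control library but control 1 at 131.5 CPM. With the score in the fit, the members' log2 fold changes were 0.21 for Aim2 to 0.62 for Ifi206, with a median of 0.43 in place of 0.68. Ifi204 had 0.41, Ifi209 0.43 and Ifi207 0.45 in that fit, while Ifi213 had 0.54 and Ifi203 0.39. With it edgeR called 8 genes and 0 members. The score itself averaged 5.87 ± 0.414 in fisetin libraries and 5.58 ± 0.261 in control libraries (SD, n = 6 each), so it partly follows the diet, and the part of macrophages in the members' difference was not tested.

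The relation with the score was also measured inside the diets, where the diet difference does not enter. After the mean of each diet and batch was taken off log2 CPM, Pearson's r with the score over 12 libraries was 0.94 for Ifi207, 0.93 for Ifi204, 0.87 for Ifi209 and 0.86 for Aim2. It was 0.80 for Ifi211, 0.78 for Ifi203, 0.77 for Mndal, 0.75 for Ifi206 and 0.70 for Ifi213. Spearman's rho ran from 0.73 for Ifi211 to 0.97 for Ifi207. An exact permutation test within diet and batch (two-sided, 1296 arrangements, smallest possible p 0.0007716) gave raw p of 0.0007716 for Ifi204 to 0.04321 for Mndal. The exact permutation p of Spearman's rho ran from 0.0007716 for Ifi204 to 0.03627 for Ifi211.

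Adjusted over the 17877 genes tested, 4 of 9 members passed 0.05 in this exact permutation test, as did 22.3% of genes, 1693 of them with a positive r. The 4 were Ifi204 (adjusted p = 0.01541, exact permutation), Ifi207 (0.02226), Ifi209 (0.02816) and Ifi206 (0.03986). By Spearman's rho 4 members passed as well, with Aim2 in place of Ifi206. Without fisetin 5 and fisetin 6, the libraries farthest from the median score, r stayed between 0.55 for Ifi203 and 0.92 for Ifi207. Of all genes 17.91% reached an r at least as high as the lowest member's.

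**Figure D5:**
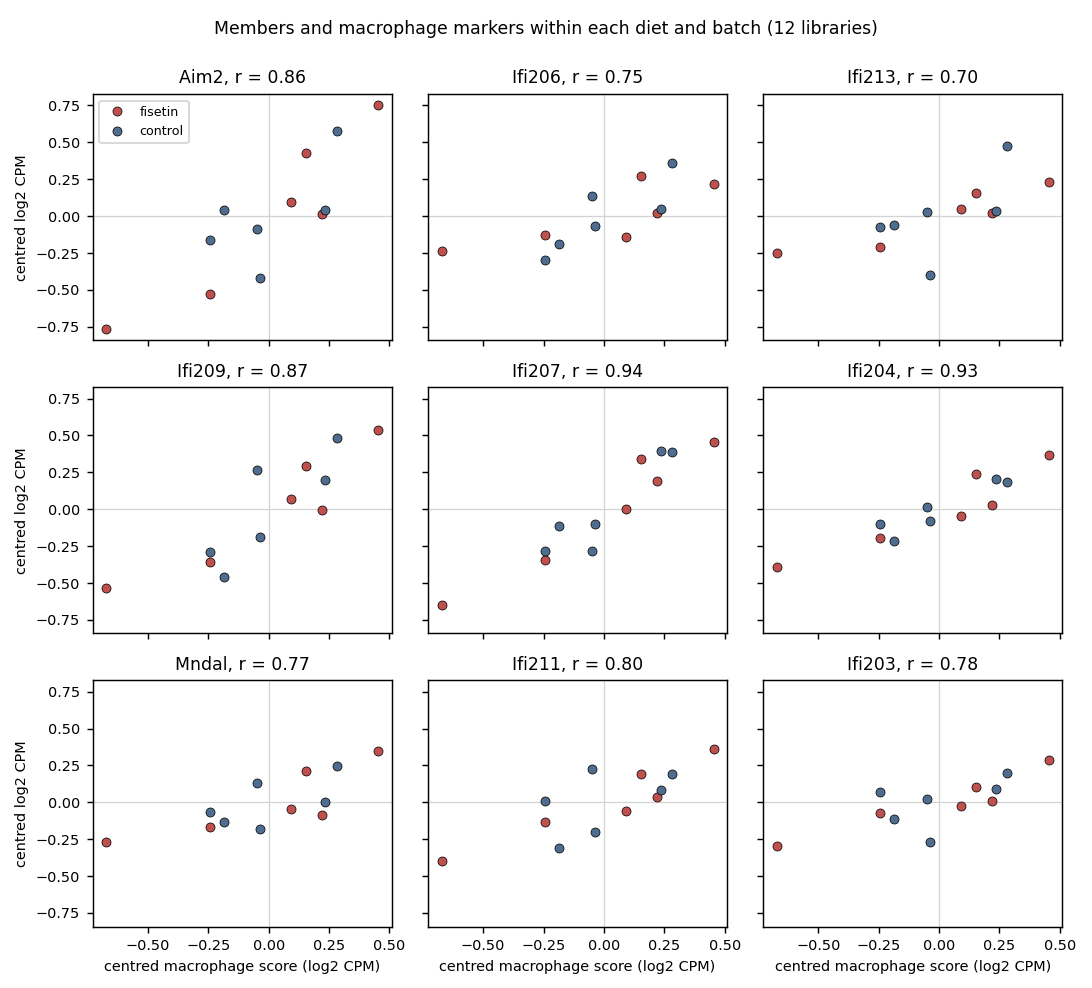
Each panel plots the log2 CPM of 1 member against the macrophage score for 6 fisetin and 6 control libraries, both centred on the mean of their diet and batch. Points rise from left to right in every panel, with Pearson's r from 0.70 for Ifi213 to 0.94 for Ifi207.

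The genes whose variation inside the diets was most like the members' mean were ranked among 16501 genes, as a description over 12 libraries. Zfp968 came nearest with r = 0.994, followed by St6gal1, Fam111a and Stk17b at 0.985. AI662270 and 2010016I18Rik reached 0.984, Rcsd1 0.983, Serinc5 and Pik3ap1 0.981, and Tspan32 0.98. Of the other cluster genes, Ifi214 reached 0.95 at rank 169 of these genes. Ifi208 and Ifi205 had 0.79 each, at ranks 1960 and 1968, and Ifi203-ps had 0.43 at rank 5351. Many genes outside the cluster thus ranked above them. Zfp968 itself differed little between the diets, with a log2 fold change of 0.06, whereas Tspan32 and AI662270 had 0.86 each.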

How the data were processed

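Kidney messenger RNA was sequenced in 12 libraries. The submitters' processing notes name GRCm38 (mm10) as builds and fastp, STAR, featureCounts and DESeq2 as tools; versions and settings and the annotation release were not given in the sources used here. Estimated counts, TPM and FPKM per gene were deposited by the authors, per the file headers. Of the estimated counts above 0, 13.91% were not whole (tolerance 1e-06). Coordinates and transcript windows came from the GENCODE annotation of GRCm38, promoters from RefSeq.

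Counts were rounded, filtered (filterByExpr, minimum count 10), scaled by TMM and fitted with edgeR 4.0.16's quasi-likelihood test with diet and batch as terms (R 4.3.3), with Benjamini-Hochberg adjustment over 17890 genes at 0.05; scripts were tested on simulated data. DESeq2 1.42.0 and limma 3.58.1 were alternatives. DESeq2 gave 1750 genes no adjusted p. Library pairs differed beyond sampling noise: the lowest of 66 chi-square ratios was 6.841.

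The members and lists were chosen with earlier results of these data known. All 9 members are named, with the 2 most counted genes of each list, any gene called by edgeR and the 10 genes most like the members. Correlation p-values were adjusted over all genes, not over the members as first planned. Amino acid sequences were not used here, and 1 listed gene outside the 9 members is not reported here. Of the list symbols, Mnda, Pyhin1, Pydc3 and Pydc4 were not matched, nor were older names of 2 cGAS-STING genes.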

Additional observations from a re-analysis of the deposited data

Results flagged for a closer look

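In 3 of 28 groups of 6 libraries, 1 library stood far from the other 5, by a gap over range above Dixon's 95% critical value. The library was control 1 each time: Aim2 at 5.013 CPM, Ifi213 at 12.82 CPM and Ifi214 at 3.008 CPM, each the highest control value. Chance gives such a gap in about 1 of 20 groups, and these groups share their libraries.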

How the results depend on the processing

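The members' fold changes stayed above 0 in 198 of 198 values under 22 alternative settings, and 0 results changed direction. The members were chosen with the diet difference known and the settings reuse the same libraries, so these values are not separate checks. Against 0 genes and 0 members called for diet, DESeq2 called 154 genes and 7 members, and limma-voom with quality weights 2390 and 9. Batch 1 alone gave 1 gene and the macrophage score as a covariate 8 genes, with 0 members in each. Leaving out 1 library at a time gave 0 to 70 genes and 0 to 5 members; 70 and 5 came without fisetin 6 and 1 gene without fisetin 4. For diet by batch DESeq2 called 1 gene. The causes were not tested. Other size factors, total counts, no filter, no batch term, log2(TPM + 1) and batch 2 alone called 0. Under total-count scaling the median of all genes was 0.045 in log2, and the members had 0.58 to 0.85. With Spearman's rho, Aim2 (0.86, adjusted p = 0.03754 by permutation) passed and Ifi206 (0.78, adjusted p = 0.06146 by permutation) did not. With windows of 100 bases the unique share was higher for 9 of 9 members, from 43.12% for Ifi211 to 100% for Aim2. Aim2 had the lowest counts of the members, 41 to 124, and the largest SE, 0.28. Outside the members, Ifi214 had lower counts, 25 to 89.59, and an SE of 0.23. The cause of the SE of Aim2 was not tested. No paired analysis was possible because the labels give no replicate numbers.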
